A study of Capsicum annuum and Capsicum annuum
Solanum lycopersicum with 48 samples.

Results

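The pepper:tomato heterograft, a pepper scion (var. Big Dipper) on a tomato stock (var. M82), was compared between 3 days after grafting (DAG) and 1 DAG. These 2 groups held 8 of the 48 libraries of the series, 4 at 3 DAG and 4 at 1 DAG, each made from the polyadenylated RNA of the junction of 1 wedge-grafted seedling, and were taken by the graft and day in the sample labels. Both plants were unmodified varieties, no agent was applied, and grafts were kept in darkness for the first 3 days. The other groups were the tomato:pepper heterograft (tomato scion on pepper stock) and the self-grafts of each species, at 1, 3 and 5 DAG. Each junction held scion and stock, so tomato genes (33604 in the table) and pepper genes (30088) were measured together but described apart. The paper reports that some heterograft reads aligned to the wrong species before both genomes were joined for alignment. How many reads did so on the joined genomes is not known here. Their effect on the values of the less abundant species in a group was not tested. The deposited table gives FPKM, fragment number per gene scaled to gene length and to all mapped fragments, as 1 value of the authors per group and gene. The spread between the 4 libraries of a group is not in these values, so no standard deviation or p-value was computed here, and read depth is unknown. The authors' own test columns in the table were not used.

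In a graft, the cut faces first adhere, wound-responsive transcription factors are switched on, cells divide into callus, and the cambium then supplies new vascular cells that join scion and stock. In Arabidopsis thaliana, the TDIF peptide binds the receptor kinase PXY, which keeps cambial cells dividing through the homeobox genes WOX4 and WOX14 and holds back xylem formation. VND6 and VND7 direct vessel formation and NST1 and NST2 direct fibre formation. WRKY, ERF and C2H2 zinc finger factors such as WRKY33 and STZ belong to the wound and defence responses. Tomato and pepper genes below carry the name of the A. thaliana gene that the study assigned to them, and the roles given are those known in A. thaliana.

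Tomato genes took a far larger part of the junction's signal at 3 DAG than at 1 DAG. They made up 51.7% of summed FPKM at 3 DAG, against 17.9% at 1 DAG, and pepper genes made up 48.3% against 82.1%. The sum over tomato genes was 887767 FPKM at 3 DAG and 216669 FPKM at 1 DAG, a ratio of 4.10. For pepper genes the sums were 828785 and 991105 FPKM, a ratio of 0.836. At 5 DAG the tomato share was again low, 23.1%. In tomato:pepper the share went the other way, with 59.5%, 29.7% and 49.2% at 1, 3 and 5 DAG. Tomato genes at 1 FPKM or more numbered 15896 at 3 DAG against 15363 at 1 DAG, and pepper genes 14122 against 16179. This level is in deposited FPKM, so for tomato genes it was more lenient at 3 DAG, where their sum was larger. More tissue of a species and more RNA per cell cannot be told apart in a whole junction.

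**Figure D1:**
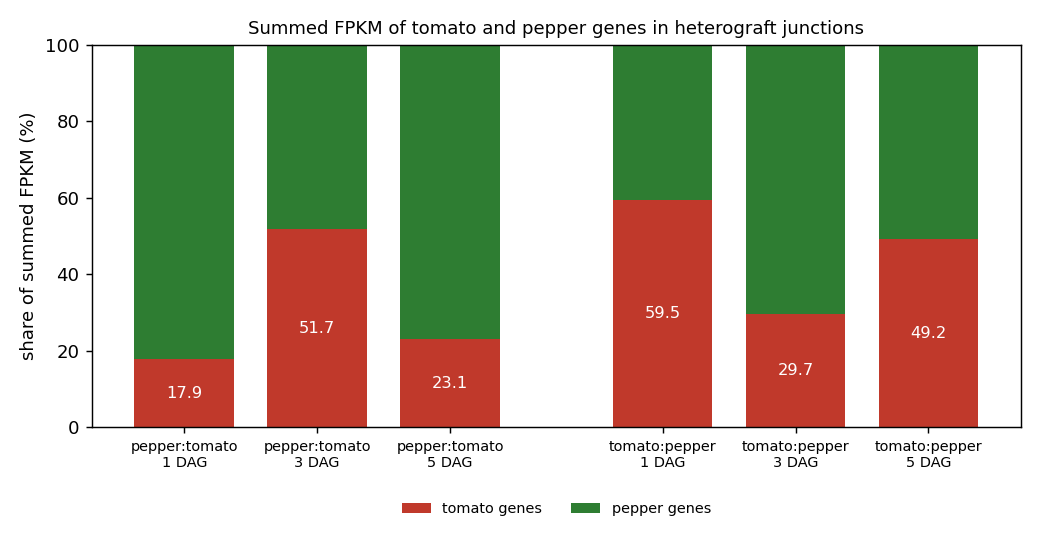
Bars give the share of summed FPKM (%) taken by tomato genes (red, value printed) and pepper genes (green) in each heterograft group, 1 deposited value per gene and group. The 3 DAG bar of pepper:tomato, 51.7% tomato, stands between 17.9% and 23.1%, and the 3 DAG bar of tomato:pepper, 29.7%, between 59.5% and 49.2%.

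The pepper:tomato profile at 3 DAG was also nearer to tomato:pepper than to its own graft at the other days. Across the 17305 tomato genes at 1 FPKM or more at 3 or 1 DAG, Pearson's r of log2(FPKM + 1) was 0.953 with tomato:pepper at 1 DAG, 0.901 with tomato:pepper at 5 DAG, 0.745 with pepper:tomato at 1 DAG and 0.759 with pepper:tomato at 5 DAG. Across the 16659 pepper genes chosen likewise, r was 0.960, 0.949, 0.854 and 0.886 in the same order. The tomato:pepper profile at 3 DAG was less one-sided. For tomato genes its r was 0.894 and 0.949 with its own graft at 1 and 5 DAG, and 0.853 and 0.938 with pepper:tomato at 1 and 5 DAG. For pepper genes these were 0.921 and 0.818 with its own graft, and 0.899 and 0.946 with pepper:tomato. The self-grafts at 3 DAG were also near to pepper:tomato at 3 DAG, with r of 0.902 for tomato genes and 0.970 for pepper genes. For pepper genes this was the highest r of all groups compared. Between tomato:pepper at 3 DAG and the self-grafts at 3 DAG, r was 0.853 for tomato genes and 0.958 for pepper genes. These are descriptions over genes, which are not replicates. Whether the 3 DAG libraries of the heterografts changed places cannot be told from the labels. The results below follow the labels, and for most lists and many genes the value with the tomato:pepper column in the place of 3 DAG is given as well.

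The count of changed genes depended on how the change in species make-up was treated. Fold changes were taken as log2, 3 DAG over 1 DAG, after each species was scaled to its own sum of 1000000 and 1 was added. On this scale the median tomato gene was at -0.86 and the median pepper gene at -0.66, against 0.83 and -0.86 in FPKM as deposited. The tomato sum was carried by its most abundant genes, as the 100 highest genes held 37.2% of tomato FPKM at 3 DAG against 21.7% at 1 DAG. In deposited FPKM the 73 tomato genes of 500 FPKM or more (geometric mean of both days) had a median change of 2.15, and the 8399 under 5 FPKM had 0.36. Changes are therefore given below relative to the median of the species (relative change, log2 scale) beside the deposited FPKM of both days, and a gene is called higher or lower under all 3 scalings where the deposited, species-scaled and relative changes all pass the threshold.

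Past a 4-fold threshold, 638 tomato genes (3.69% of 17305) were higher and 3348 (19.3%) lower at 3 DAG on the species' own sum. In deposited FPKM these were 3164 (18.3%) and 281 (1.62%), and relative to the median 1508 (8.71%) and 1249 (7.22%). Under all 3 scalings, 622 tomato genes (3.59%) were higher and 281 (1.62%) lower. Of the pepper genes, 407 (2.44% of 16659) were higher and 1601 (9.61%) lower on the species' own sum, 303 (1.82%) and 2141 (12.9%) in deposited FPKM, and 895 (5.37%) and 438 (2.63%) relative to the median. Under all 3 scalings, 303 pepper genes (1.82%) were higher and 438 (2.63%) lower. With the tomato:pepper column as 3 DAG, the counts on the species' own sum were 489 higher and 1322 lower for tomato, and 167 and 1624 for pepper. Past 2-fold relative to the median, 2464 of 16406 tomato genes followed in that column were higher and 2716 lower. For pepper these were 2566 and 2535 of 16311 genes. A value of exactly 0 in 1 of the groups can be a failed estimate. It occurred in 64 of the 622 and 23 of the 281 tomato genes, and in 6 of the 303 and 23 of the 438 pepper genes.

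**Figure D2:**
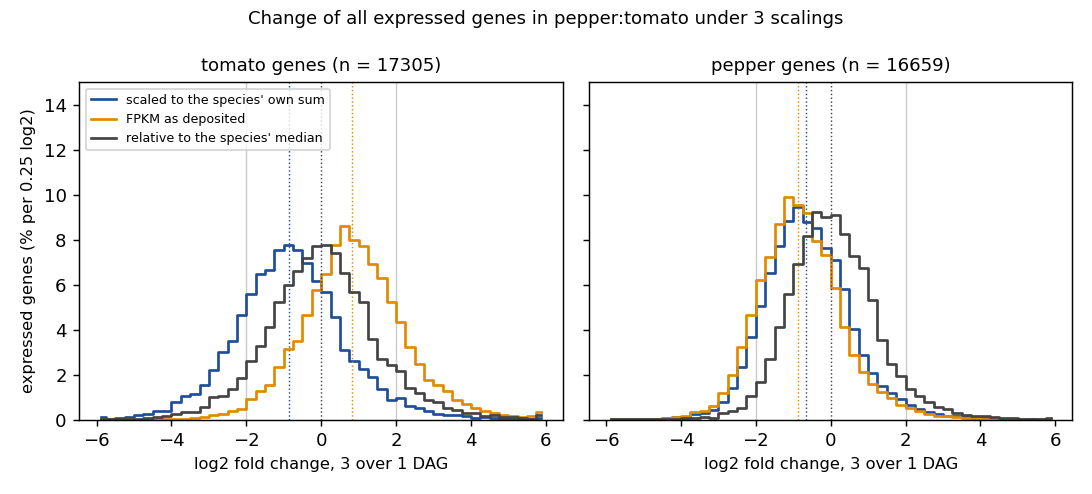
Lines give the percentage of expressed genes per bin of 0.25 on the log2 fold change axis, 3 over 1 DAG in pepper:tomato, for tomato (left, 17305 genes) and pepper (right, 16659 genes) under 3 scalings, with changes beyond the axis placed in its end bins. Dotted lines mark medians and grey lines 4-fold. The tomato curves lie on either side of 0, with medians of -0.86 on the species' own sum and 0.83 in deposited FPKM, while both pepper medians lie below 0, at -0.66 and -0.86.

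Pepper genes that changed most in pepper:tomato moved the same way in the pepper self-graft, whose libraries are separate. Of the 303 pepper genes higher under all 3 scalings, 298 lay above the median change of the pepper self-graft, and of the 438 lower, 401 lay below it. In tomato, 509 of the 610 higher genes that could be followed lay above the median of the tomato self-graft, and 184 of the 267 lower genes below it. In tomato:pepper most lay on the opposite side. There, 475 of 596 tomato genes higher in pepper:tomato lay below the median and 215 of 257 lower genes above it, and for pepper genes these were 227 of 277 and 296 of 401. The median divides all expressed genes evenly. No test of the difference between grafts was possible with 1 value per group.

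Several tomato genes of the cambium list, the PXY, TMO6 and WOX4 genes among them, were low at 3 DAG, while others were not. Of 25 expressed tomato genes of the cambium list, 10 were 2-fold or more lower and 0 higher under all 3 scalings, where 7.68% and 10% of all expressed tomato genes were called. On the species' own sum 15 were lower and 0 higher (45.6% and 10% of all expressed tomato genes), and relative to the median 12 and 3 (22.5% and 22.7%). The list had a median relative change of -0.97. Each of the 10 was higher at 5 DAG than at 3 DAG in deposited FPKM. The same held for 1224 of all 1329 expressed tomato genes that were 2-fold or more lower under all 3 scalings. With the tomato:pepper column as 3 DAG, 7 of the 25 cambium genes were lower and 0 higher relative to the median. Of 16406 tomato genes followed in that way, 2716 were lower and 2464 higher. The median relative change of the list was then -0.04.

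Both tomato PXY genes, the TDIF receptors, were low. Solyc05g051640 had 0.267 FPKM at 3 DAG against 5.52 at 1 DAG (relative change -3.49), and Solyc03g093330 had 0.809 against 5.42 FPKM (-2.91). Taken from tomato:pepper, the relative changes were -1.61 and -0.39. The TDIF ligand gene Solyc09g061410 had 139 FPKM at 3 DAG and 128 FPKM at 1 DAG, a relative change of -1.05. Its direction differed between the deposited and the relative scale, and the tomato:pepper column gave 0.38.

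WOX4 (Solyc04g078650), the homeobox factor downstream of PXY, had 2.67 FPKM at 3 DAG against 10.5 at 1 DAG, a relative change of -2.78. Over the time course it had 10.5, 2.67 and 16.8 FPKM at 1, 3 and 5 DAG, so 3 DAG was the low point. Taking the tomato:pepper value at 3 DAG, 18.0 FPKM, the relative change was 0.10 and the low point was gone. WOX14 (Solyc02g082670) was less changed, with 22.7 against 29.2 FPKM (-1.50, and -0.62 with the tomato:pepper column).

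The 3 tomato TMO6 genes, which encode Dof factors active in early vascular cells, were all lower. Solyc11g072500 had 2.33 FPKM at 3 DAG against 21.1 at 1 DAG (-3.91), Solyc06g005130 had 0.170 against 3.65 (-3.05), and Solyc06g075370 had 8.68 against 27.4 (-2.71). These 3 stayed more than 2-fold below the median with the tomato:pepper column as 3 DAG, at -1.74, -1.60 and -1.09. The gene named for both MP, an auxin response factor, and ATHB8, a class III HD-ZIP gene (Solyc04g081235), had 1.20 against 7.61 FPKM (-3.08). MOL1 (Solyc07g005010), a receptor-like kinase that limits cambial activity, had 2.29 against 8.26 FPKM (-2.60). Using the tomato:pepper column, these were at -0.68 and -0.17.

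HCA2 (Solyc06g071480), a Dof factor that promotes cambium between the bundles, had the lowest relative change of the tomato genes named in the paper. It had 1.10 FPKM at 3 DAG against 14.6 at 1 DAG, a relative change of -4.08, and it was also lower with the tomato:pepper column (-2.84). LHW, a bHLH factor of procambial divisions, has 2 tomato genes in the list. Solyc06g074110 had 0.242 against 2.47 FPKM (-2.43) and the more abundant Solyc11g068960 had 34.1 against 30.1 FPKM (-0.97), and both were lower with the tomato:pepper column (-1.63 and -1.82).

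Brassinosteroid signalling genes of the same tomato list were higher in deposited FPKM and lay near or above the species' median. All 6 BIN2/BIL1 kinase genes had more FPKM at 3 DAG, as did 75.3% of all expressed tomato genes. Solyc03g006070 led with 48.8 against 8.93 FPKM (1.26), and the relative changes of the 6 ran down to -0.05 at Solyc02g072300. The BES1 gene Solyc12g089040, a factor at the end of that pathway, had 110 against 23.0 FPKM (1.08). None of these passed 2-fold under all 3 scalings. On the species' own sum this BES1 gene was at 0.23. The 6 BIN2/BIL1 genes there ran from 0.41 at Solyc03g006070 to -0.91 at Solyc02g072300, with a median of -0.36. KNAT1 (Solyc04g077210), a class I KNOX gene, had 27.2 against 11.6 FPKM (0.07). The receptor kinase gene SERK1/SERK2 (Solyc04g072570) had 8.39 against 5.92 FPKM (-0.58). LBD4, a boundary gene of the vascular bundle, showed no common direction, with relative changes of -1.80, -0.84 and -0.02 for its 3 tomato genes.

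Xylem regulators were hardly detected in tomato at 3 or 1 DAG of pepper:tomato. All 6 genes of the list (VND6, VND7, NST1 and NST2) were under 1 FPKM at both days, so no change is given. In the tomato:pepper column at 3 DAG, NST1 (Solyc10g005010) had 5.53 FPKM and the VND6 gene Solyc06g034340 had 1.73, and the others were under 1 FPKM. RAP2.6L (Solyc12g042210), an ERF gene that acts in tissue reunion, had 8.25 FPKM at 3 DAG against 16.9 at 1 DAG (-2.09), and -2.18 with the tomato:pepper column. ERF4 (Solyc01g090560) had 0.260 against 3.50 FPKM (-2.87), but 0.14 with that column. An XTH gene (Solyc07g052980), which encodes an enzyme that remodels xyloglucan in cell walls, had 21.3 against 54.2 FPKM (-2.47), and 150 FPKM and 0.79 with it. In the tomato self-graft the relative change of this XTH gene was 1.36. THOM1, LBD18 and JRE4, regulators that the study drew from the tomato self-graft network, were under 1 FPKM at both days of pepper:tomato. In the tomato:pepper column at 3 DAG they had 2.87, 5.68 and 16.7 FPKM, which put their relative changes at 1.61, 3.17 and 3.64.

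Some tomato wound and defence regulators were high at 3 DAG. Of 12 expressed members, 3 were 2-fold or more higher and 0 lower under all 3 scalings (background 10% and 7.68%). On the species' own sum 3 were higher and 4 lower (10% and 45.6% of all expressed tomato genes). Relative to the median 4 were higher and 4 lower (22.7% and 22.5%), and the median relative change was 0.86. Taken from tomato:pepper, 1 of 11 was higher and 2 were lower relative to the median (2464 and 2716 of 16406 tomato genes). The median relative change was then -0.14.

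An ERF gene (Solyc05g052050), one of a pair with an ERF name in the list, had 269 FPKM at 3 DAG against 13.9 at 1 DAG, a relative change of 3.08. The 2 STZ genes, which encode stress-responsive C2H2 zinc finger repressors, had 42.4 against 1.39 FPKM (Solyc12g088390, 3.57) and 125 against 8.44 FPKM (Solyc04g077980, 2.69). At 5 DAG they stood at 1.44 and 7.40 FPKM, close to 1 DAG. Of all 1730 expressed tomato genes 2-fold or more higher under all 3 scalings, 1671 had less FPKM at 5 DAG than at 3 DAG. With the tomato:pepper column as 3 DAG the ERF gene kept a relative change of 1.90, while the STZ genes were at 0.25 and 0.39.

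WRKY33 (Solyc06g066370), a regulator of defence against necrotrophs, had 50.3 FPKM at 3 DAG against 10.7 at 1 DAG (1.05). The ERF gene PTI5 (Solyc02g077370) had 47.5 against 10.8 FPKM (0.95), and NAC104 (Solyc01g104900), a NAC factor that limits cell death in forming vessels, had 23.5 against 4.73 FPKM (1.12). In the tomato self-graft the relative changes of these genes were below 0, at -0.68, -0.83 and -1.93, and with the tomato:pepper column they were at -0.64, -0.14 and -0.26. A lower value at 3 DAG was seen for WRKY46 (Solyc01g095630), 7.03 against 14.3 FPKM (-2.05), and it was nearly as low with the tomato:pepper column (-1.85). MYB15, a factor of phenylpropanoid defence, was split, with relative changes of 0.90, -1.23 and -1.86 for its 3 genes, and 0.29, -0.90 and -0.51 with that column.

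**Figure D3:**
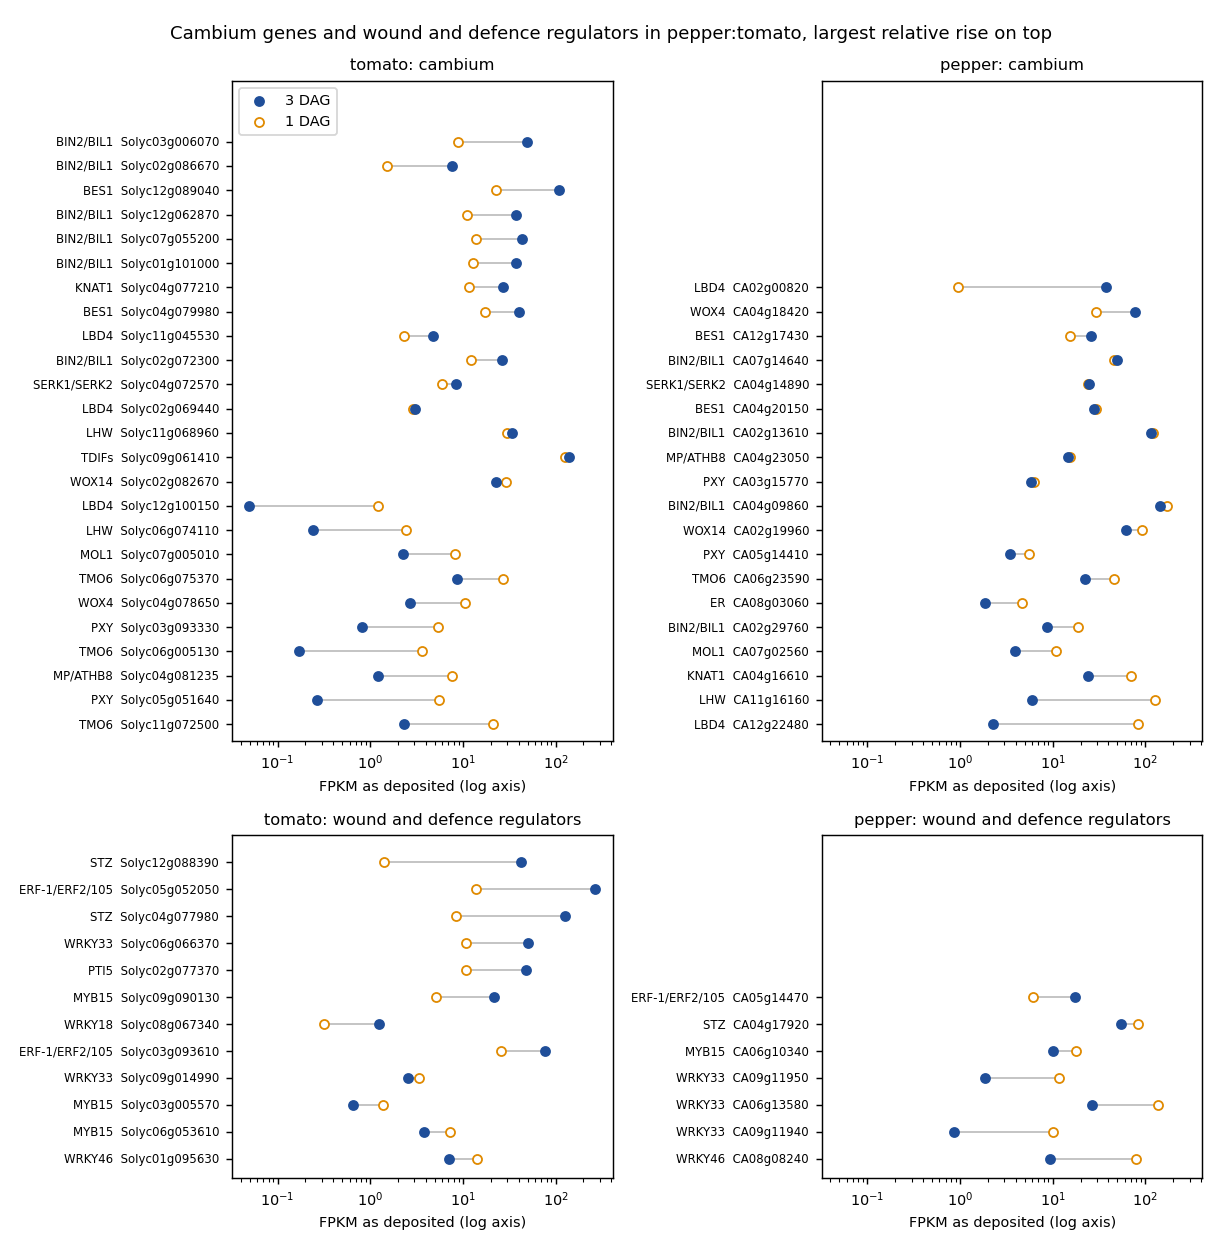
Each row is 1 expressed gene, with its FPKM as deposited (log axis) in pepper:tomato at 3 DAG (filled blue) and 1 DAG (open orange), and rows run from the largest relative change at the top to the lowest. In the tomato cambium panel the lower rows, from LBD4 Solyc12g100150 down, have 3 DAG to the left of 1 DAG, and in the tomato wound panel the STZ and ERF rows at the top have 3 DAG far to the right, up to 269 FPKM against 13.9 FPKM.

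The pepper cambium genes had no common direction, and their median depended on the 3 DAG column. Of 19 expressed members, 2 were 2-fold or more higher and 2 lower under all 3 scalings, where 6.19% and 16.7% of all expressed pepper genes were called. On the species' own sum 2 were higher and 4 lower (8.10% and 37.7% of all), relative to the median 4 were higher and 2 lower (18.6% and 16.7%), and the median relative change was 0.65. With the 3 DAG values of tomato:pepper, 3 were higher and 7 lower relative to the median (2566 and 2535 of 16311 pepper genes). The median relative change of the list was then -0.62. WOX4 (CA04g18420) was higher, with 76.5 FPKM at 3 DAG against 29.0 at 1 DAG, a relative change of 2.29. This is the opposite direction to tomato WOX4 in the same junctions. Taken from tomato:pepper, 8.41 FPKM at 3 DAG, pepper WOX4 was lower instead, at -1.20.

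The 2 pepper LBD4 genes moved apart and did so with either 3 DAG column. CA02g00820 had 37.4 FPKM at 3 DAG against 0.955 at 1 DAG (5.22, and 2.57 with the tomato:pepper column). CA12g22480 had 2.26 against 82.8 FPKM (-3.84, and -3.18 with that column). The same split stood in the pepper self-graft, at 2.91 and -2.36. LHW (CA11g16160) was low in the same way, with 6.05 against 128 FPKM (-3.31, and -3.23 with the tomato:pepper column).

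The relative changes of the other 15 pepper cambium genes lay between -0.58 and 1.64. The 2 PXY genes had 5.78 against 6.34 FPKM (CA03g15770, 0.77) and 3.50 against 5.61 FPKM (CA05g14410, 0.31), where both tomato PXY genes were at -2.91 or lower, but with the tomato:pepper column the pepper genes were at -1.28 and -0.88. TMO6 (CA06g23590) had 22.4 against 45.5 FPKM (-0.08) and WOX14 (CA02g19960) 62.1 against 91.1 FPKM (0.37). The BIN2/BIL1 gene CA04g09860, the most abundant of the list, had 143 FPKM at 3 DAG against 172 at 1 DAG (0.65). BES1 (CA12g17430) had 26.1 against 15.3 FPKM (1.64, and 0.69 with the tomato:pepper column). Of the xylem list, VND6 (CA06g06410) and VND7 (CA06g14050) stayed under 3 FPKM, and NST1 (CA11g08290) had 1.26 FPKM at 1 DAG and was listed at 0 at 3 DAG.

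Regulators that the study drew from the pepper self-graft network each lay on the same side of the median in pepper:tomato and in pepper self-grafts. All 8 were expressed. LBD18 (CA01g11210), a callus regulator, had 4.53 FPKM at 3 DAG against 0.368 at 1 DAG (2.90, self-graft 1.57). MYB86 (CA01g20220), a MYB factor, had 2.07 against 0.0968 FPKM (2.33, self-graft 1.82), and the homeodomain-zip gene HD-ZIP14 (CA10g19210) had 3.41 against 0.839 FPKM (2.13, self-graft 1.35, and 0.96 with the tomato:pepper column). One of the ERF genes, CA01g01880, had 0.327 against 4.28 FPKM (-1.27, self-graft -1.32), and the other, CA01g01830, had 0.136 against 1.62 FPKM (-0.51, self-graft -0.57). LBD25 (CA02g30000) had 2.87 against 10.2 FPKM (-0.68, self-graft -0.96). Under all 3 scalings 3 of the 8 were higher past 2-fold and 1 lower (background 6.19% and 16.7%), with a median relative change of 1.13. Of the 5 that could be taken from tomato:pepper, 1 was higher and 1 lower relative to the median (2566 and 2535 of 16311 pepper genes). The median of the 5 was 0.05. In the tomato:pepper column at 3 DAG, LBD18 was listed at 0 and MYB86 stood at 0.0285 FPKM. The xyloglucan enzyme gene XTH38 (CA11g08350) had 6.14 against 55.2 FPKM (-2.09, self-graft -2.80), and -3.04 with that column.

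The 4 pepper WRKY genes of the wound and defence list were low at 3 DAG. Of 7 expressed wound and defence regulators, 4 were 2-fold or more lower and 1 higher under all 3 scalings (background 16.7% and 6.19%), with a median relative change of -1.33. Using the tomato:pepper column, 2 were higher and 1 lower relative to the median (2566 and 2535 of 16311 pepper genes), and the median of the list was -0.21. The 4 were WRKY46 (CA08g08240), with 9.45 FPKM at 3 DAG against 79.3 at 1 DAG (-2.04), and all 3 WRKY33 genes, CA06g13580 with 26.8 against 136 FPKM (-1.38), CA09g11940 with 0.852 against 10.1 FPKM (-1.81) and CA09g11950 with 1.86 against 11.8 FPKM (-1.33). CA09g11940 and CA09g11950 have neighbouring identifiers. WRKY46 stayed at -2.00 with the tomato:pepper column, while the WRKY33 genes were at -0.41, -0.21 and 0.41. The higher one was the ERF gene CA05g14470, with 17.3 against 6.21 FPKM (2.25, and 2.42 with the tomato:pepper column). The tomato genes of the same ERF name, Solyc03g093610 and Solyc05g052050, also lay above the median, at 0.40 and 3.08. STZ (CA04g17920) had 54.9 against 82.7 FPKM (0.33), where the tomato STZ genes were at 3.57 and 2.69. This difference turned round with the tomato:pepper column, which gave 2.03 for the pepper gene and 0.25 and 0.39 for the tomato genes.

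Beyond the named genes, 192 pepper regulators carry a family name in the study's regulator table, and 185 were expressed. The study chose them on these libraries for their change, and the table used here is a part of it, so their counts are not independent evidence of a direction. In order of identifier that part ends at CA10g07860, so later genes are not in the family counts and medians. Among these are HD-ZIP14 (CA10g19210, 2.13) and the bHLH gene LHW (CA11g16160, -3.31). Under all 3 scalings 38 of the 185 regulators were 2-fold or more higher and 78 lower (background 6.19% and 16.7%).

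Among Dof, HD-ZIP, bZIP and LBD members more were higher than lower, where of all 185 regulators 38 were higher and 78 lower. GATA members leaned the same way, with 2 of 4 higher, 1 lower and a median relative change of 2.23. Of 5 Dof members 3 were higher and 2 lower under all 3 scalings, led by CA02g25910 with 201 FPKM at 3 DAG against 18.4 at 1 DAG (4.30) and CA02g25980 with 25.7 against 1.64 FPKM (4.25), or 1.55 and 1.32 with the tomato:pepper column. Of 7 HD-ZIP members, plant homeodomain factors, 5 were higher and 1 lower. CA01g05840 had the largest change among them, with 26.0 against 2.22 FPKM (3.98), but only 0.640 FPKM in the tomato:pepper column (-0.35). The LBD gene CA06g23650 had 12.9 against 1.21 FPKM (3.56, and 1.26 with that column), and 4 of 7 LBD members were higher and 1 lower. These 7 do not include the LBD4 gene CA12g22480, which was lower (-3.84, and -3.18 with that column). The bZIP gene CA02g24850 had 72.1 against 9.63 FPKM (3.70, and 0.71 with that column), and 3 of 4 bZIP members were higher and 0 lower. The family medians were 3.23 for Dof, 2.96 for HD-ZIP, 2.86 for bZIP and 2.22 for LBD, and they were 1.23, 0.42, 1.23 and 1.26 with the tomato:pepper column.

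Single members of other families completed the 10 largest rises among annotated pepper genes. The ERF gene CA07g13850 had 23.0 FPKM at 3 DAG against 2.61 at 1 DAG (3.65), close to its self-graft change of 3.44. A BES1 family gene, CA07g16850, had 12.2 against 0.820 FPKM (3.77), the GATA gene CA03g35040 had 24.9 against 3.49 FPKM (3.45), and the GRF gene CA02g24820, of a family of growth-regulating factors, had 11.8 against 1.53 FPKM (3.24). Using the tomato:pepper column, the ERF gene kept 2.51, the BES1 family gene 1.10 and the GRF gene 1.28, while the GATA gene was at -0.21.

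Among WRKY, bHLH and MYB-related members more were lower than higher, as among all 185 regulators (78 lower and 38 higher). B3 (4 lower and 1 higher), C2H2 (3 and 1), HSF (3 and 1), ERF (7 and 3) and MYB (7 and 4) members leaned the same way. Of 12 WRKY members 6 were lower and 1 higher under all 3 scalings, with CA07g14560 the exception at 11.6 against 2.68 FPKM (2.68). Of 17 bHLH members 9 were lower and 2 higher. The bHLH genes CA03g14140, with 1.46 against 119 FPKM (-4.79), and CA03g22700, with 1.58 against 89.8 FPKM (-4.32), had the largest falls of all annotated pepper genes. At 3 DAG in the tomato:pepper column they stood at 29.9 and 16.0 FPKM, and the relative changes were -1.51 and -1.96. Of 11 MYB-related members 10 were lower and 0 higher, and CA10g07860, with 18.6 FPKM at 1 DAG, was listed at 0 at 3 DAG. Taken from tomato:pepper, 1 of 12 WRKY members was lower and 1 higher relative to the median (family median -0.13), 5 of 11 MYB-related members were lower and 2 higher (-0.16), and 7 of 14 bHLH members were lower and 0 higher (-1.13). The family medians by the labels were -1.14, -1.86 and -1.06. Of all 171 regulators taken from tomato:pepper, 37 were lower and 36 higher relative to the median.

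Falls of similar size stood in single members of other families. A NAC gene, CA08g15460, had 9.22 FPKM at 3 DAG against 265 at 1 DAG (-3.80). Its value in the tomato:pepper column was 172 FPKM, which put the relative change at -0.17. The ERF gene CA05g11070 had 0.492 against 29.1 FPKM (-3.59), the GATA gene CA09g16580 had 0.255 against 20.6 FPKM (-3.39), the TCP gene CA07g14430 had 0.334 against 19.8 FPKM (-3.24), and the NF-YA gene CA02g04730 had 0.705 against 23.0 FPKM (-3.05). Their changes with that column were -2.66, -1.53, -0.66 and -1.67. All of these were higher at 5 DAG than at 3 DAG, with 62.8 FPKM for the NAC gene. The same held for 2735 of all 2781 expressed pepper genes that were 2-fold or more lower under all 3 scalings.

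**Figure D4:**
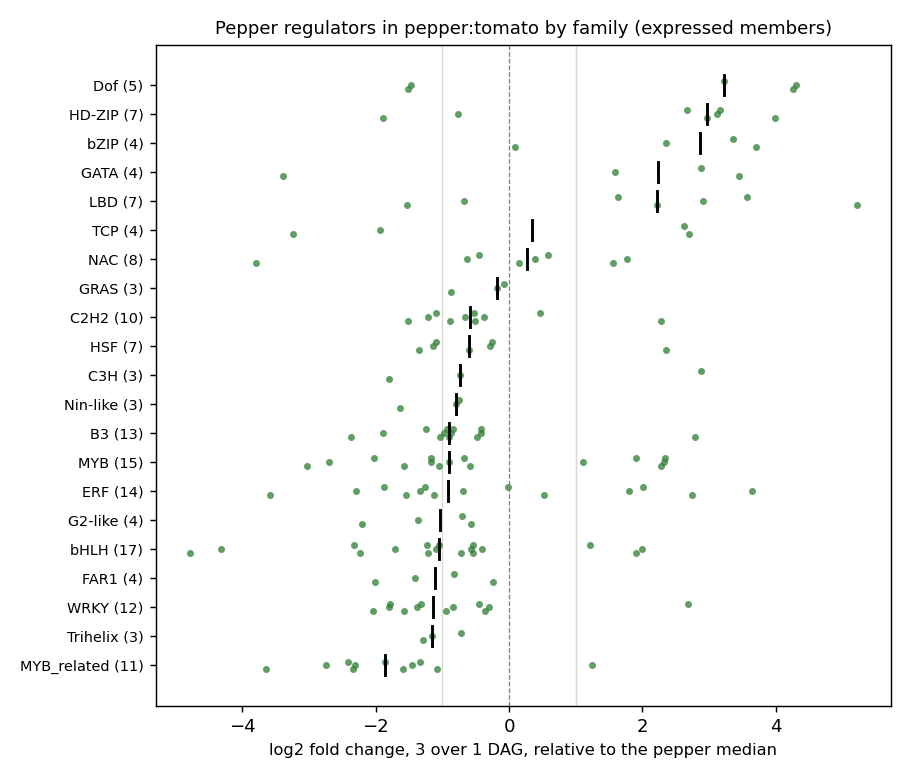
Each point is 1 expressed pepper regulator, placed by its log2 fold change in pepper:tomato, 3 over 1 DAG, relative to the pepper median (dashed line), and black bars are medians of families with 3 or more expressed members (number in brackets). Dof (3.23) and HD-ZIP (2.96) have the highest medians and MYB-related (-1.86) the lowest.

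Target genes of the self-graft network modules were followed as lists, which the study drew from the self-graft libraries and not from the heterograft. The study assigned genes to a day by their upregulation in the self-graft. The self-graft medians given beside, for pepper and for tomato, are thus partly set by that choice. Pepper targets kept the direction of the pepper self-graft. Of 210 expressed targets of the 1 DAG module, 154 were 2-fold or more lower and 1 higher under all 3 scalings (background 16.7% and 6.19%), and their median relative change was -1.49, against -1.72 in the pepper self-graft and -0.22 in tomato:pepper. Of 163 targets of the 3 DAG module, 97 were higher and 1 lower, with a median of 2.33, against 2.10 in the self-graft and 0.66 in tomato:pepper. Of 124 targets of the 5 DAG module, 68 were higher and 13 lower, with a median of 2.21, against 1.88 and 0.45. The 3 and 5 DAG modules share 75 targets, 44.1% of the 3 DAG list and 54.3% of the 5 DAG list.

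Tomato targets followed the tomato self-graft for the 3 DAG module and less for the other modules. Of 79 expressed targets of the 3 DAG module, 49 were 2-fold or more higher and 2 lower under all 3 scalings (background 10% and 7.68%), with a median relative change of 2.37, against 1.84 in the tomato self-graft and 0.35 in tomato:pepper. Of 73 targets of the 1 DAG module, 11 were higher and 17 lower, with a median of -0.79, against -1.47 in the self-graft and -1.61 in tomato:pepper. In deposited FPKM this median was above 0, at 0.17. Of 59 targets of the 5 DAG module, 16 were higher and 12 lower, with a median of 0.39, against 1.55 and 2.6. When tomato:pepper supplied the 3 DAG values, the tomato medians were -1.36, 2.09 and 2.23 for the 1, 3 and 5 DAG modules, and the pepper medians were -1.55, 2.10 and 0.96. The 3 DAG lists thus lay above the median, and the 1 DAG lists below it, with either column.

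**Figure D5:**
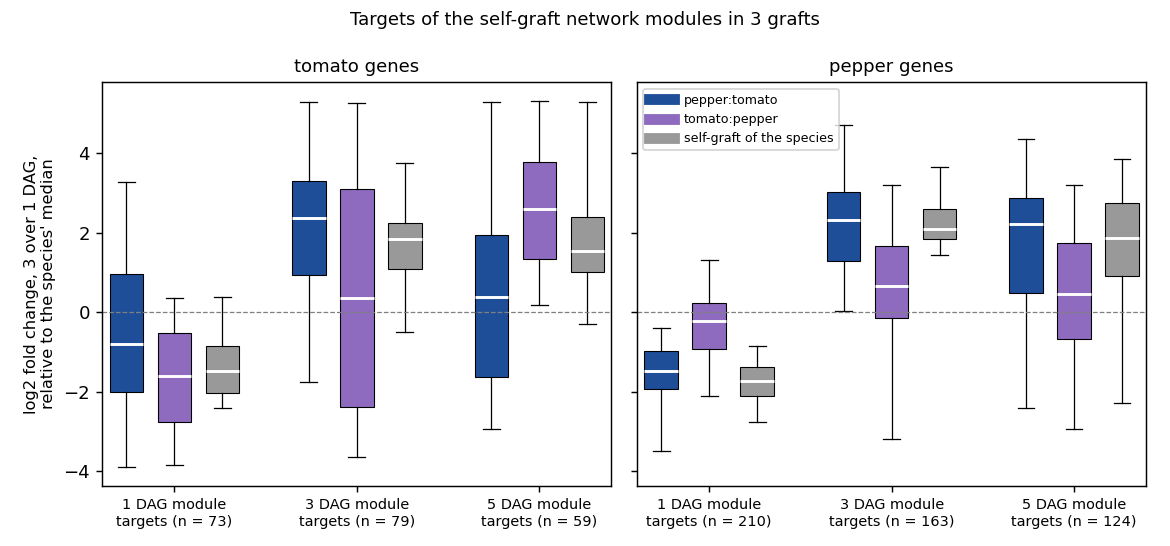
Boxes give the quartiles and median (white line) and whiskers the 5th and 95th percentiles of log2 fold changes, 3 over 1 DAG, relative to the species' median, for targets of the self-graft modules in pepper:tomato (blue), tomato:pepper (purple) and the self-graft of the species (grey), n being the targets expressed in pepper:tomato. The blue pepper boxes lie beside the grey ones (medians of -1.49, 2.33 and 2.21), while the blue tomato boxes of the 1 and 5 DAG modules are wide and have medians of -0.79 and 0.39.

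The largest changes of all were in genes that carry no name here. In tomato, Solyc06g005470 had 444 FPKM at 3 DAG against 0.492 at 1 DAG (8.12), and Solyc07g056090 had 350 FPKM at 3 DAG and was listed at 0 at 1 DAG. Both were high at 3 DAG in the tomato self-graft as well, but Solyc06g005470 had 2.86 FPKM at 3 DAG in tomato:pepper. The largest falls were Solyc10g009150, with 1.50 against 485 FPKM (-8.85), and Solyc09g008320, with 2.02 against 110 FPKM (-6.42), which were at -3.99 and -1.20 with the tomato:pepper column. In pepper, CA09g03230 had 148 against 1.26 FPKM (6.97) and CA02g18250, a target of the 5 DAG module, had 415 against 5.49 FPKM (6.92), but the tomato:pepper column held 0.429 and 1.98 FPKM. CA05g14650 had 1.25 against 279 FPKM (-6.15), and 200 FPKM in the tomato:pepper column. CA04g12700 had 4454 FPKM at 1 DAG and was listed at 0 at 3 DAG, as it was at 3 and 5 DAG in the pepper self-graft, so no fold change is given.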

How the data were processed

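Polyadenylated RNA of pepper:tomato junctions at 3 and 1 DAG was sequenced by the authors, 4 libraries per group. FPKM values were made by the authors with TuxNet at default settings (fastq-mcf, HISAT2, Cufflinks) on the joined tomato (ITAG3.2) and pepper (CM334) genomes, and were deposited as 1 value per group. Versions are not given in the sources used here. Because FPKM is scaled over both species, each was rescaled here to its own sum (1000000), and the log2 fold change used a pseudocount of 1 and genes at 1 FPKM or more in either group. Thresholds were 4-fold for all genes and 2-fold for lists. No test over libraries could be run on these values. The 24 columns of the authors' own fold changes and q values were not used, and read counts cannot be recovered from group values. The self-graft tables were normalized separately, so only changes, not levels, were set beside them. The organism label of the tomato self-grafts conflicts with their titles and was set aside.

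Members and lists were chosen with earlier results of these data known. Named were the genes that the paper identifies (98, of which 43 tomato and 38 pepper genes were expressed) and, per species, the 10 annotated genes of 10 FPKM or more with the largest rise and fall, with at most 2 rises and 2 falls of unannotated ones. Family names of pepper regulators came from the study's supplement and were added as lists after the values were seen. Named from these families, outside that rule, was the WRKY exception CA07g14560. Lists by gene product could not be formed, since 0 identifiers matched the reference table. Version suffixes of tomato identifiers were dropped. Alternatives were deposited FPKM, centring on the species' median, pseudocounts of 0.1 and 5, no filter or 5 FPKM, a 2-fold threshold, the tomato:pepper column as 3 DAG and, added after the data were seen, leaving out genes listed at 0. Folds and counts were tested on simulated data, which checks the calculation and not the choice of pseudocount, filter or scaling. Python 3.11.15, pandas 2.3.3, numpy 2.4.6 and matplotlib 3.10.9 were used.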

Additional observations from a re-analysis of the deposited data

Results flagged for a closer look

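The tomato share of summed FPKM and both WOX4 genes moved one way in pepper:tomato and the other way in tomato:pepper. With 1 value per group, these differences were not tested. The tomato share was 33.8 percentage points higher at 3 DAG in pepper:tomato, whereas in tomato:pepper the difference was -29.8 points. Pepper WOX4 had a relative change of 2.29 in pepper:tomato and -2.87 in tomato:pepper. Tomato WOX4 had -2.78 in pepper:tomato and 1.75 in tomato:pepper.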

How the results depend on the processing

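No paired analysis was possible because each group has 1 deposited value, and for the same reason no library could be left out in turn. With 4 libraries behind each value and depth unknown, genes of low FPKM are the least certain. On the species' own sum, 638 tomato genes were higher and 3348 lower, and 407 pepper genes higher and 1601 lower. In deposited FPKM tomato had 3164 and 281. Centring on the median gave 1508 and 1249 for tomato and 895 and 438 for pepper. A pseudocount of 5 gave 366 and 1219 for tomato and 183 and 382 for pepper, and 0.1 gave 682 and 3300 for pepper. At 2-fold the counts were 1730 and 7893 for tomato and 1349 and 6282 for pepper. The 5 FPKM filter left 1542 tomato genes lower. With the tomato:pepper column as 3 DAG, 1322 tomato genes were lower, 167 pepper genes higher, and the tomato share was 29.7% in place of 51.7%. Filtering at no level and leaving out genes listed at 0 kept all 4 counts within 1.5 times.

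Species-scaled changes beyond 2-fold that turned round in deposited FPKM were the medians of the tomato cambium list (0.12) and 1 DAG module (0.17), and the tomato genes LBD4 Solyc02g069440 (0.057), SERK1/SERK2 Solyc04g072570 (0.44), TDIFs Solyc09g061410 (0.12) and LHW Solyc11g068960 (0.17). Those that turned round with the tomato:pepper column as 3 DAG were pepper LBD18 (-0.46), MYB86 (-0.10), WOX4 (-1.94), CA01g05840 (-1.09), CA02g24850 (-0.028), CA03g35040 (-0.95), CA09g03230 (-0.75), CA02g18250 (-1.32) and CA04g12700 (0.64), and tomato LBD4 Solyc02g069440 (0.42), both STZ genes (-0.18 for Solyc04g077980 and -0.32 for Solyc12g088390) and XTH Solyc07g052980 (0.22 for the gene and 0.90 for the list of xyloglucan enzymes, which counts 1 more gene there). Relative to the median, LBD18 (0.28), MYB86 (0.64), CA02g24850 (0.71), Solyc04g077980 (0.39) and Solyc12g088390 (0.25) stayed above 0 with that column. LBD18 and MYB86 were under 1 FPKM there and at 1 DAG. CA04g12700 was listed at 0 at 3 DAG by the labels. The cause of these changes was not tested. Of 106 named genes, the species-scaled change turned round in 13 with the tomato:pepper column and in 4 in deposited FPKM.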
